A study of Mus musculus with 18 samples.

Results

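The comparison described here is liraglutide against PBS in the heart atria of mice with an experimental myocardial infarction, 6 of the 18 RNA-seq libraries of the series. All 6 come from male C57BL/6J mice whose left anterior descending coronary artery was tied, and whose atria were taken 3 days later. The labels put 3 libraries under liraglutide (replicates 1, 2 and 3) and 3 under PBS (replicates 1, 2 and 3), each called a biological replicate. The other 12 libraries are infarcted and non-infarcted left ventricle (LV) of the same 2 treatments, and are used here only as a reference for ventricular RNA and for the side-by-side values at the end. Both atrial groups carry the infarction, and sham-operated hearts were not analysed here, so no value below separates liraglutide from infarction in an uninjured heart. Dose, route and timing of the drug, which atrium was taken and whether animals were pooled were found in none of the sources used here. If the replicates were not separate animals, the p-values measure only the spread between these samples.

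Liraglutide is a long-lived analogue of the gut hormone GLP-1. It acts on the GLP-1 receptor, a receptor coupled to the stimulatory G protein that raises cAMP. In the pancreas this promotes insulin secretion, and in the mouse heart the receptor has been placed mainly in the atria. Atrial muscle is also an endocrine tissue that secretes natriuretic peptides when it is stretched. After an infarct of the ventricle the atria lie next to the injury: they share its haemodynamic load, and circulating white cells pass through them.

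Levels are given as normalized CPM, the gene's count scaled by the library's total and its TMM factor. Differences are log2 fold changes of liraglutide over PBS, each with its standard error (SE). The adjusted p is Benjamini-Hochberg over all 13530 tested genes in edgeR's quasi-likelihood test. Depth ran from 6262832 counts (PBS replicate 3) to 21853482 (liraglutide replicate 3). A gene is said to stand apart when all 3 treated libraries lie on one side of all 3 PBS libraries and its unadjusted edgeR p is under 0.05. Of the 13530 genes 383 stood apart on the higher side (2.83%) and 347 on the lower side (2.56%), and the median log2 fold change of all genes was -0.0028.

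The libraries differ in the tissue they hold. The atrial markers were high in all 6. Nppa, the atrial natriuretic peptide, stood at 32374, 37640.1 and 25178 normalized CPM in the liraglutide libraries and at 34123, 30008 and 37704 in the PBS libraries. Bmp10, a growth factor of atrial muscle, was at 976, 1045 and 693 and 943, 729 and 1063, against 0.5701 ± 0.517 in PBS non-infarcted LV (SD, n = 3). Myl2, the regulatory light chain of ventricular myosin, was instead uneven, at 299, 8.97 and 874 with liraglutide against 8.53, 5.55 and 2.08 with PBS. Set against the Myl2 level of the PBS non-infarcted LV, these values correspond to a ventricular share of 2.57, 0.0776 and 8.64% of the RNA in liraglutide replicates 1, 2 and 3. In PBS replicates 1, 2 and 3 the share was 0.0825, 0.0556 and 0.0194%. The Clopper-Pearson 95% interval of the highest share was 8.52 to 8.76%, which covers counting error only. Ventricular RNA is therefore high in 2 of the 3 treated libraries and in none of the controls. Over the 9 ventricular markers the summed level was 1137, 578 and 1972 normalized CPM with liraglutide against 693, 513 and 583 with PBS. Irx4, a transcription factor of the ventricle, was at 0.785, 0 and 2.55 with liraglutide against 0.0762, 0 and 0 with PBS; it is therefore at 0 in 3 of the 6 libraries, 1 treated and 2 PBS.

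PBS replicate 2 held RNA of fat. Adipoq, the hormone adiponectin of fat cells, stood at 5.26, 1.74 and 3.68 normalized CPM with liraglutide against 0.9904, 74.02 and 0.319 with PBS. Ucp1, the uncoupling protein that defines brown fat, had 2, 0 and 3 counts with liraglutide and 0, 1673 and 0 with PBS. The lipogenic genes Scd1 and Fasn also peaked in this library. In all, 64 genes with at least 50 counts there were at least 4-fold above every other atrial library. The summed level of the 12 adipocyte markers was 1945, 1948 and 1646 normalized CPM with liraglutide against 1898, 3546 and 1858 with PBS. The count of 4-fold genes was 2 for liraglutide replicate 3 and 0 for each of the other 4 libraries.

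**Figure D1:**
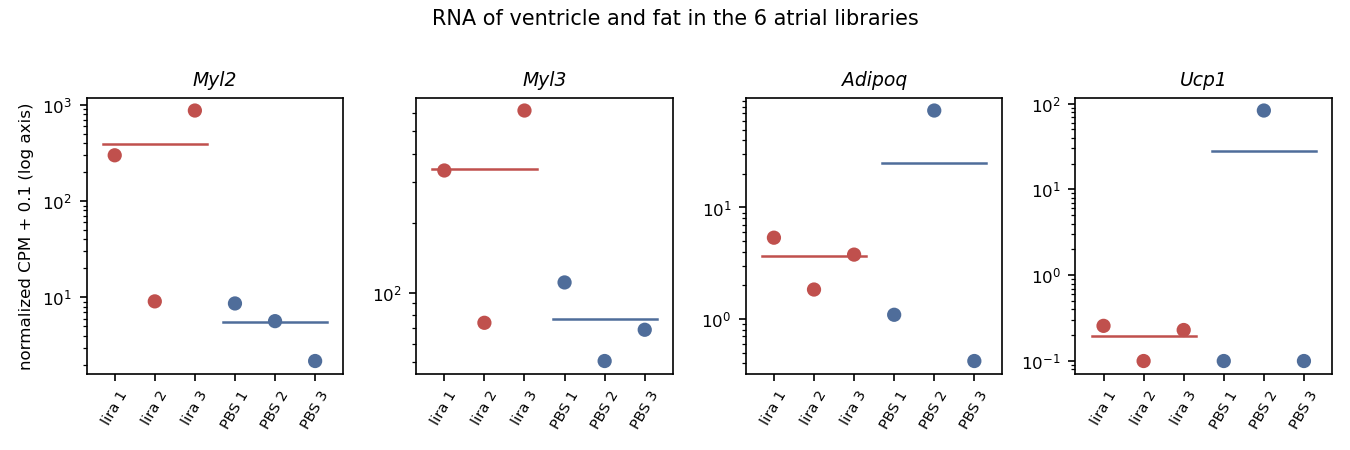
Normalized CPM + 0.1 on log axes for the ventricular light chains Myl2 and Myl3 and the fat genes Adipoq and Ucp1, one point per atrial library and a line at each group mean (red, liraglutide; blue, PBS). Myl2 and Myl3 are high in liraglutide replicates 1 and 3 and low in liraglutide replicate 2, and Adipoq and Ucp1 are high in PBS replicate 2.

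Irs2 rose with liraglutide and was the 1 gene of 13530 past the adjusted threshold (0.00739%). Irs2 encodes an adaptor that carries the signal of the insulin and IGF-1 receptors to PI3-kinase and Akt. The liraglutide libraries stood at 121, 102 and 118 normalized CPM and the PBS libraries at 51.3, 48.9 and 50.5. All 3 treated libraries were thus far above the controls, which lay close together. The means were 114 ± 10.5 and 50.2 ± 1.19 (SD, n = 3 each), a 2.26-fold difference (log2 fold change 1.18, SE 0.108, adjusted p = 0.0234). PBS ventricle (non-infarcted LV throughout) and PBS atria hold nearly the same level of Irs2 RNA (ratio 0.991). A share of that tissue alone would make a log2 fold change of -0.00048. Irs2 was higher in PBS infarcted LV, as given with the ventricular values below, so a share of infarcted tissue would raise it. By how much was not computed, and the region that the ventricular RNA came from was not tested. Every value below for what ventricular RNA would give also rests on non-infarcted LV alone. Liraglutide replicate 2, the treated library whose ventricular share is at the control level, gave 1.004 by itself against the 3 controls, which did not pass (adjusted p = 0.0751). The call held without liraglutide replicate 3 (1.149, adjusted p = 0.00533) and was lost without any 1 of the other 5 libraries (adjusted p from 0.0619, without liraglutide replicate 2, to 0.28, without PBS replicate 2), while the log2 fold change stayed between 1.13 and 1.26.

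Irs2 lies on the minus strand of chromosome 8 at positions 10984681 to 11008458 of GRCm38 (mm10) in the GENCODE annotation. The 250 bases before its RefSeq start site (GRCm38.p6, chr8:11008930-11009179, minus strand) are shown because Irs2 is the gene that passed:
Irs2: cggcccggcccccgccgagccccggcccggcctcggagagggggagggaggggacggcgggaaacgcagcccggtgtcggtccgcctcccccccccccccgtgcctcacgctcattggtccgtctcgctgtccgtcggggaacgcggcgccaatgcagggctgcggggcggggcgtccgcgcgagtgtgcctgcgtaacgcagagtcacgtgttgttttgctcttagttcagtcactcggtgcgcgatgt
The stretch was searched on both strands for the letters of a FOXO site (TGTTTAC, found in 3.17% of the 32851 RefSeq promoter stretches of this length) and of a cAMP response element (TGACGTCA, 1.55%). Neither string of letters is in this window.

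Among the 20 measured genes of insulin and IGF signalling, 14 were positive and 6 negative, with a median of 0.13 (0.07 without liraglutide replicate 1), where 49.4% of all tested genes were positive. Besides Irs2, 3 stood apart on the higher side, against 2.83% of all genes. Irs1, the sister adaptor, was at 24.7, 26.4 and 25.4 normalized CPM with liraglutide against 20.2, 16.9 and 15.97 with PBS (0.52, SE 0.129, adjusted p = 0.421). The inhibitory adaptor Grb10 (0.24) and the Akt-activating kinase Pdpk1 (0.27) differed by smaller amounts. The receptors themselves overlapped between the groups: Insr had 0.28 and Igf1r 0.12. Slc2a4, the insulin-responsive glucose transporter, was at 0.12 (adjusted p = 0.908).

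FOXO transcription factors are held back by insulin signalling and in turn drive a set of genes, Irs2 among them. Of 19 FOXO factors and targets 18 were positive, against 49.4% of all tested genes. On the higher side 4 stood apart, against 2.83% of all genes: Irs2, Sesn1, Tent5a and Cited2. The list holds Irs2 and was chosen with earlier results of these data known. The median was 0.28, and it ran from 0.20 (without liraglutide replicate 3) to 0.31 (without PBS replicate 1) when each library was left out. Sesn1, a leucine sensor that restrains mTORC1, stood at 246, 228 and 179 normalized CPM against 112, 114 and 142 (0.83, SE 0.1496, adjusted p = 0.363). Tent5a, a poly(A) polymerase, stood at 146, 127 and 123 against 85.5, 68.96 and 87.2 (0.71, SE 0.127). The co-regulator Cited2 stood at 60.4, 36.5 and 30.03 against 20.7, 17.7 and 19.97 (1.12, SE 0.249). Liraglutide replicate 3 was the lowest treated library for each of these 3, yet above all controls. Without it, Sesn1 (adjusted p = 0.0164), Tent5a (0.034), Cited2 (0.0352) and Irs2 all passed, in a fit where 0.768% of all genes passed. For Sesn1, Tent5a and Cited2 that fit drops the treated library nearest the controls, so these calls are in part built in and support nothing. Foxo1 itself did not differ beyond its spread, at 40.6, 38.8 and 41.7 against 35.9, 43.8 and 35.8 normalized CPM (0.06, SE 0.117).

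Next to Irs2 the smallest p-values belonged to Pwwp3b and Ccn2. Pwwp3b, which encodes a PWWP-domain protein, stood at 21.8, 22.3 and 16.3 normalized CPM with liraglutide against 6.86, 7.44 and 7.67 with PBS (1.46, SE 0.166, adjusted p = 0.073). It passed once the ventricular profile was subtracted from each library (1.504, adjusted p = 0.0296). PBS ventricle holds 0.281 times the atrial level, so ventricular RNA would lower it (-0.04). Ccn2, or connective tissue growth factor, is a matricellular protein and a classic target of the mechanosensing co-activator YAP. It stood at 2455, 1766 and 1674 against 659.5, 539 and 809 normalized CPM, so the lowest treated library was about 2 times the highest control (1.55, SE 0.198, adjusted p = 0.142). Ccn2 lies on chromosome 10 at 24595442 to 24598683, and ventricular RNA would change it by -0.03.

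YAP and TEAD genes did not share a direction. Of 18 measured members 12 were positive and 6 negative, with a median of 0.18 (0.11 without liraglutide replicate 3). Ccn1, the second CCN target, was at 1612, 1113 and 660.4 against 217, 119 and 340.3 normalized CPM and stood apart while varying widely within both groups (2.33, SE 0.47996, adjusted p = 0.421). Crim1 also stood apart on the higher side (0.38, SE 0.108). Fjx1 and Tead4 stood apart on the lower side. Fjx1, a secreted relative of the fly kinase four-jointed and a target in the same list, was at 15.4, 14.7 and 15.1 against 25.1, 25.3 and 26.4 normalized CPM (-0.76, SE 0.113, adjusted p = 0.281). The 3 treated values of Fjx1 lie within 1 normalized CPM of each other. Tead4, a DNA-binding partner of YAP, was at 12.9, 13.5 and 11.6 against 16.4, 16.7 and 15.8 (-0.37, SE 0.1298). Fjx1 is 12.3 times higher in PBS atria than in PBS ventricle, and ventricular RNA would change it by -0.05.

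**Figure D2:**
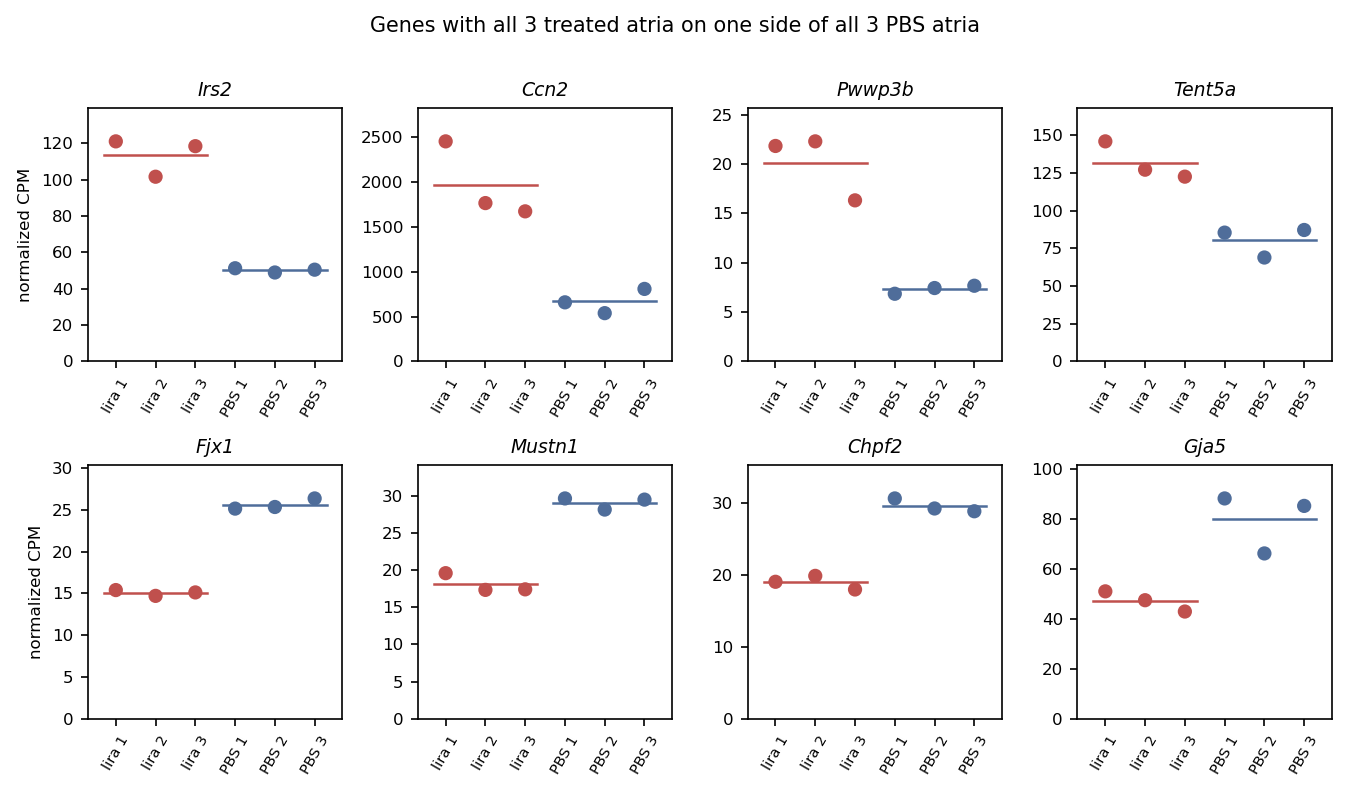
Normalized CPM on linear axes from 0 in each atrial library, with a line at each group mean (red, liraglutide; blue, PBS). In the upper row (Irs2, Ccn2, Pwwp3b, Tent5a) all 3 treated libraries lie above all controls, and in the lower row (Fjx1, Mustn1, Chpf2, Gja5) all 3 lie below; only Irs2 passed the adjusted threshold.

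Other genes of this even kind, named by the smallest p among those that stood apart with a mean count of at least 50, come from many functions. On the higher side were the centrosomal protein Tacc2 (0.76, SE 0.1196), the protease inhibitor A2m (0.88, SE 0.149), the histone deacetylase Hdac9 (0.85, SE 0.156) and the Src family kinase Yes1 (0.62, SE 0.115). Filip1l (0.59), Dipk2a (0.77), the DNA-binding protein Arid5b (1.11), the kinase Tnik (0.84), the immediate early gene Ier3 (0.71) and Lbh (0.92) complete that side. Each of these 10 had adjusted p = 0.363. Hdac9 was even within the treated group, at 14.7, 15.1 and 15.02 normalized CPM with liraglutide against 8.53, 7.04 and 9.58 with PBS. Lbh, a transcriptional co-regulator, is 9.35 times higher in PBS ventricle than in PBS atria, and the ventricular share would give it 0.39. In liraglutide replicate 2, where that share is at the control level, Lbh stood at 0.75 above the controls. Tacc2 is 5.54 times higher in the ventricle, and 0.62 of its 0.76 remained after subtraction.

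On the lower side were Mustn1, a small protein of muscle and skeleton, at 19.6, 17.4 and 17.4 against 29.7, 28.2 and 29.6 normalized CPM (-0.68, SE 0.115, adjusted p = 0.363). Smad3, the transcription factor of TGF-beta signalling, was at 61.7, 59.99 and 54.5 against 83.8, 89.3 and 76.2 (-0.50, SE 0.108). Ccnd1, cyclin D1 of the cell cycle, was at 32.2, 30.7 and 40.5 against 47.5, 57.01 and 56.9 (-0.64, SE 0.139). These 3 differed by less than 2-fold, with every treated library below every control. Ptges, the inducible synthase of prostaglandin E2, stood at 5.73, 7.09 and 5.67 against 10.1, 23.2 and 15.02 (-1.40, SE 0.293, adjusted p = 0.37). Prr33 (-0.59), Cdr2l (-0.60), the surface protein Cd24a (-0.74), the endothelial diaphragm protein Plvap (-0.58) and Ankrd34a (-0.98) were the others.

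Some proteoglycan enzymes were on that side too. Chondroitin sulfate chains are built on matrix proteins by polymerases and then sulfated. Of 18 measured genes for chondroitin and heparan sulfate synthesis, 12 were negative and 6 positive, where 49.4% of all tested genes were positive. On the lower side 5 stood apart, against 2.56% of all genes, and 0 on the higher side. The polymerizing factors Chpf2 and Chpf were at 19.1, 19.9 and 18.003 against 30.7, 29.3 and 28.9 and at 28.9, 26.9 and 28.5 against 39.995, 41.3 and 42.2 normalized CPM. Their log2 fold changes were -0.64 (SE 0.111) and -0.55 (SE 0.101), both with adjusted p = 0.363. The synthase Chsy3 (-0.90) and the sulfotransferases Chst11 (-0.60) and Chst15 (-0.55) were the other 3. The median of the list was -0.12, between -0.08 without liraglutide replicate 1 and -0.21 without liraglutide replicate 3.

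Of the retinoic acid genes, 2 that make this signal stood apart on the lower side and 1 that removes it on the higher side. Aldh1a2, the main synthetic enzyme of the heart's outer layer, stood at 15.4, 18.7 and 17.4 against 28.6, 29.7 and 24.3 normalized CPM (-0.69, SE 0.134, adjusted p = 0.363). Its relative Aldh1a3 was at 12.8, 10.6 and 18.4 against 22.9, 27.9 and 18.7 (-0.73, SE 0.225). Cyp26b1, which degrades retinoic acid, was low throughout but apart, at 2.67, 2.82 and 2.42 against 1.52, 0.992 and 0.958 (1.16, SE 0.295). With Stra6, the retinol transporter (-0.99), 3 of 11 members stood apart on the lower side, against 2.56% of all genes. Cyp26b1 alone did so on the higher side, against 2.83%, and none passed. Cyp26b1 is 8.31 times higher in the ventricle, and ventricular RNA would give it 0.35. The 12 measured markers of the epicardium and mesothelium, where Aldh1a2 is made, had a median of -0.33 (-0.18 without PBS replicate 2 and -0.50 without liraglutide replicate 2), and 1 of them, Aldh1a2, stood apart. In bulk tissue, fewer cells of a type and less RNA per cell cannot be told apart.

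Genes of electrical conduction gave a mixed picture. Gja5 encodes connexin 40, the gap junction channel that couples atrial muscle cells. It stood at 51.02, 47.5 and 42.9 normalized CPM with liraglutide against 88.3, 66.2 and 85.3 with PBS (-0.76, SE 0.136, adjusted p = 0.363). Gja5 is 15.5 times higher in PBS atria than in PBS ventricle. Ventricular RNA would change it by -0.05, and liraglutide replicate 2 alone gave -0.76. Connexin 43, Gja1, overlapped between the groups (-0.04, SE 0.179). The desmosomal protein Pkp2 stood apart on the higher side, at 252, 274 and 200.02 against 191, 151 and 183 (0.47, SE 0.147). Among 16 ion channel genes 2 stood apart on the lower side, against 2.56% of all genes, and 1 on the higher side, against 2.83%. The potassium channel Kcnh2, which carries the rapid delayed rectifier, was at 213, 221 and 195 against 315, 241 and 264 normalized CPM (-0.38, SE 0.126). The sodium channel Scn10a was lower as well (-0.57), and Kcnip2, a subunit of the transient outward channel, was higher (0.49). Kcnip2 is 5.06 times higher in the ventricle, and its value was 0.23 with liraglutide replicate 2 alone. Atrial markers as a list had 4 of 11 positive and a median of -0.10 that has no stable sign. It was 0.005 without liraglutide replicate 1, 0.008 without liraglutide replicate 3, 0.01 without PBS replicate 1 and -0.15 without PBS replicate 2.

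A second kind of gene divided the treated atria: liraglutide replicates 1 and 2 lay above the controls and liraglutide replicate 3 lay close to them. Genes of cardiomyocyte stretch and stress were of this kind. Of 16 measured members 14 were positive, against 49.4% of all tested genes. On the higher side 6 stood apart, against 2.83% of all genes, and none passed with all 6 libraries. The median was 0.97, and 1.27 without liraglutide replicate 3, where 7 members passed against a background of 0.768% of all genes. That library's place near the controls defines this kind of gene. A larger median and more calls without it are therefore built in and support nothing, here and for Myocd and the heat shock genes below. Flnc, filamin C of the Z-disc, stood at 16928, 13337 and 5321 normalized CPM with liraglutide against 4317, 3078 and 5313 with PBS (1.49, SE 0.426, adjusted p = 0.536). The lowest treated value thus all but touched the highest control. Xirp1, an actin-binding repeat protein of the intercalated disc, was at 9854, 7298 and 3559.6 against 2310.3, 1555 and 3001 (1.59, SE 0.403). Xirp2, its relative, was at 1974, 2000.5 and 1165 against 603, 619 and 975 (1.23, SE 0.264). Csrp3, the muscle LIM protein, was at 3393, 3273 and 1666 against 1389.6, 1174 and 1662 (0.98, SE 0.271). In all 4, liraglutide replicates 1 and 2 were above every control and liraglutide replicate 3 was the treated library nearest to them.

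Fhl1, a LIM protein that senses strain at the sarcomere, kept more distance, at 1637, 1437 and 1001 against 622, 503 and 764 normalized CPM (1.11, SE 0.214, adjusted p = 0.363). Ankrd1, a stretch-induced co-factor of the Z-disc and nucleus, overlapped between the groups, at 11958, 12015 and 7961 against 5630.1, 5751 and 8542 (0.68, SE 0.218). Nppb, the B-type natriuretic peptide, was at 1798, 1416 and 1088 against 891, 703 and 1193 (0.63, SE 0.234, adjusted p = 0.645) and overlapped as well, and Nppa had -0.10 (SE 0.173). Acta1, skeletal actin, stood apart (2.31, SE 0.552) at only 7.22, 1.59 and 3.59 against 0.838, 0.892 and 0.639. It is 851 times higher in PBS ventricle than in PBS atria, and the ventricular share computed from Myl2 would alone give it 5.04, more than was measured. Ventricular RNA would change Flnc, Xirp1, Csrp3 and Fhl1 by -0.03, -0.02, 0.0054 and -0.03. Among the treated libraries their levels are lowest in liraglutide replicate 3, and the cause of this order was not tested.

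Targets of serum response factor, the regulator of actin genes, and sarcomere genes followed in part. Of 18 serum response factor targets 5 stood apart on the higher side, against 2.83% of all genes, and Mustn1 on the lower. Myocd, a cofactor of serum response factor in muscle, was at 237, 211 and 117 against 113, 85.8 and 117 normalized CPM (0.84, SE 0.259) and passed without liraglutide replicate 3 (1.09, adjusted p = 0.0164). Of 19 sarcomere and Z-disc genes 18 were positive, with a median of 0.16, which was 0.08 without PBS replicate 2 and 0.09 without liraglutide replicate 2. Lmod2, which nucleates thin filaments, was at 1186, 909 and 680.03 against 433, 407 and 538 (1.01, SE 0.206, adjusted p = 0.363). Myot, myotilin of the Z-disc, was at 6.83, 5.86 and 6.15 against 2.51, 3.02 and 3.67 (1.05, SE 0.218). It is 41.2 times higher in the ventricle, and subtraction of the ventricular profile took it to -0.05. Liraglutide replicate 2, with almost no ventricular RNA, still had nearly as much Myot as the other treated libraries (0.94 by itself). The main cardiac myosin chains overlapped between the groups, Myh6 at 0.20 (SE 0.161) and Myh7 at -0.23 (SE 0.125).

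Heat shock genes combined large fold changes with a wide spread among the treated atria. Chaperones of this group refold damaged proteins, and most are induced by heat shock factor 1. All 19 measured members were positive, against 49.4% of all tested genes. On the higher side 7 stood apart, against 2.83% of all genes, and none passed. The median was 0.49, and it ran from 0.27 (without PBS replicate 1) to 0.72 (without liraglutide replicate 3) when each library was left out. Hspa1a, the inducible HSP70, was at 2241, 1034 and 157 normalized CPM with liraglutide against 44.6, 19.2 and 67.3 with PBS (4.73, SE 1.19, adjusted p = 0.538). Hspa1b, its near-identical neighbour, with which it can share reads, was at 2212, 944 and 127 against 27.9, 10.7 and 66.8 (5.01, SE 1.41). The co-chaperone Dnajb1 was at 505, 209.6 and 51.02 against 34.4, 31.6 and 32.6 (2.96, SE 0.862). The 3 treated libraries were ordered alike in these 3 genes, replicate 1 highest and replicate 3 lowest, and replicate 3 was still above every control.

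Hspa8, the constitutive HSC70, was at 5709, 5569 and 3042 against 2082, 2279 and 2799 normalized CPM (1.000, SE 0.242, adjusted p = 0.421). Dnaja1, another HSP70 partner, was at 234, 171 and 96.7 against 54.4, 76.8 and 81.3 (1.24, SE 0.325). The small chaperone Hspb1 was at 3091, 2559 and 831 against 779, 851 and 1132, with liraglutide replicate 3 inside the control range (1.23, SE 0.469). Bag3, which links HSP70 to autophagy, behaved like Hspb1, at 1345, 791 and 336 against 342, 330.1 and 401 (1.204, SE 0.467). Without liraglutide replicate 3, Hspa8 (adjusted p = 0.012), Hspb1 (0.012), Dnaja1 (0.0273) and Bag3 (0.0339) passed, whereas Hspa1a (0.149) and Dnajb1 (0.0688) did not. In that fit 0.768% of all genes passed. Hsp90aa1, an inducible HSP90, was at 1287, 1183 and 549 against 317, 536 and 738 normalized CPM and overlapped between liraglutide replicate 3 and PBS replicate 3. PBS replicate 3 was also the highest control for Hspa1a, Hspa1b, Hspa8, Hspb1, Dnaja1 and Bag3.

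The heat shock promoters are shown because all members of the list shared a sign. The letters GAANNTTC, the core pair of a heat shock element, were searched on both strands of the 250 bases before each RefSeq start site. They are in 6.69% of all 32851 such stretches and in 7 of the 21 stretches (33.3%) of the 15 heat shock genes found in that table. Hspa8 is among those without an entry. In the 100-base stretches that follow (GRCm38.p6, read on the gene's strand) the capitals mark the matches:
Hspa1a (chr17:34972206-34972305, minus strand): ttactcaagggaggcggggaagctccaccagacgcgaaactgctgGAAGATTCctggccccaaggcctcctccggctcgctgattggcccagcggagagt
Dnaja1 (chr4:40722299-40722398, plus strand): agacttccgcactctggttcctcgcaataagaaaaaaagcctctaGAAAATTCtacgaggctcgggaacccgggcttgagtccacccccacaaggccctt
Hspb1 (chr5:135887757-135887856, plus strand): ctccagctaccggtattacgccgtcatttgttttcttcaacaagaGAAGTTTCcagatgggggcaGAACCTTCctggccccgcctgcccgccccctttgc
Hspd1 (chr1:55088017-55088116, minus strand): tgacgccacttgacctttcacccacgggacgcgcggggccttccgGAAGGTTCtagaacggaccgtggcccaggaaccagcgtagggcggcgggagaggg
The 300-base stretches of Hspa1a and Hspa1b are identical at 296 positions, and reads may be split between these copies. Hspd1, the mitochondrial HSP60, holds a match but hardly differed, at 450.2, 458 and 366 against 275, 388 and 438 normalized CPM (0.21, SE 0.178).

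**Figure D3:**
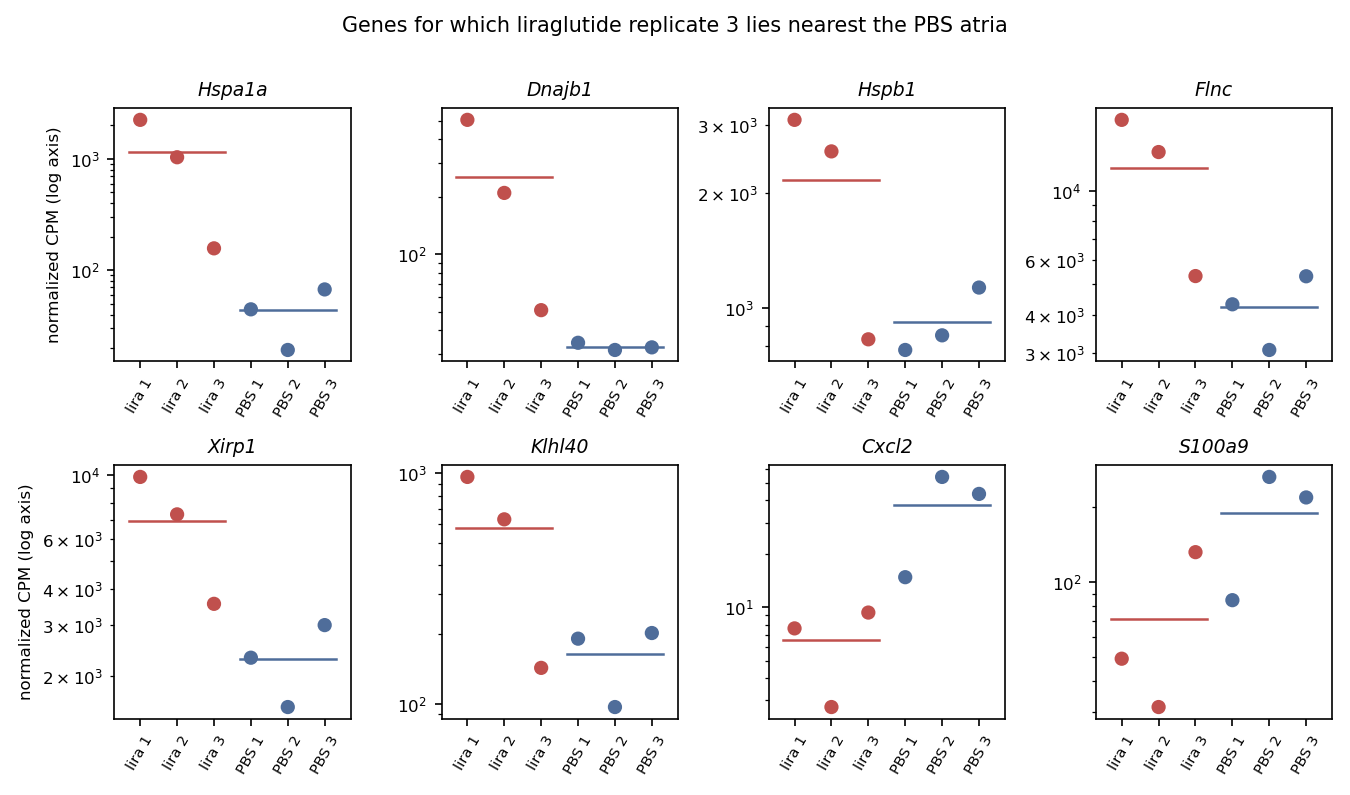
Normalized CPM on log axes in each atrial library, with a line at each group mean (red, liraglutide; blue, PBS). For Hspa1a, Dnajb1, Hspb1, Flnc, Xirp1 and Klhl40, liraglutide replicates 1 and 2 lie above all controls and replicate 3 is the lowest treated library; for Cxcl2 and S100a9, liraglutide replicate 3 is the highest treated library and PBS replicate 1 the lowest control.

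Inflammatory genes went the other way. All 18 measured cytokines and chemokines were negative, 10 of them stood apart on the lower side against 2.56% of all genes, and none passed. The median was -1.38, and it ran from -1.94 (without liraglutide replicate 3) to -1.03 (without PBS replicate 2) when each library was left out. Cxcl1, Cxcl2, Cxcl3 and Cxcl5 encode the attractants of neutrophils. Cxcl2 was at 7.61, 2.75 and 9.35 normalized CPM with liraglutide against 14.8, 54.1 and 43.5 with PBS (-2.49, SE 0.627, adjusted p = 0.512). Cxcl1 was at 36.2, 24.2 and 51.3 against 54.9, 105 and 94.6 (-1.18, SE 0.333), and Cxcl3 at 1.81, 1.45 and 4.37 against 5.18, 20.3 and 11.98 (-2.25, SE 0.602). In each of these 3 PBS replicate 1 was the lowest control and PBS replicate 2, the library with fat RNA, the highest. Cxcl5 followed the same order (-1.38, SE 0.422).

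The cytokine Il6 was at 15.8, 6.87 and 23.5 against 25.8, 85.3 and 63.3 normalized CPM (-1.90, SE 0.5998), and its relatives Lif (-1.84, SE 0.538) and Il11 (-2.02, SE 0.595) also stood apart. Without PBS replicate 2 the values were -1.497 for Il6, -1.38 for Lif and -2.10 for Cxcl2. The monocyte attractants Ccl2 (-0.66) and Ccl7 (-0.68) and the alarmin Il33 (-0.52) differed by less. Il1b, an early cytokine of such responses, overlapped, at 10.8, 8.32 and 33.02 against 23.2, 98.8 and 84.8 (-1.96, SE 0.779). The 15 feedback genes of IL-1 and NF-kB were all negative (median -0.26), with Icam1 (-0.31) and Relb (-0.43) apart.

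The chemokine promoters are shown because Cxcl1, Cxcl2 and Cxcl3 lie close together on chromosome 5 and all members of the list shared a sign. The letters GGANTTTCC, a core of the NF-kB site, were searched in the same way. They are in 1.07% of all 32851 stretches and in 4 of the 18 stretches (22.2%) of the 14 cytokine and chemokine genes found there, those of Cxcl1, Cxcl2, Cxcl3 and Il6. The capitals mark the match, which lies 43 to 96 bases before the start site. No stretch of a heat shock gene holds these letters and no stretch of a cytokine gene holds those of the heat shock element, so the matches do not overlap:
Cxcl1 (chr5:90891130-90891229, plus strand): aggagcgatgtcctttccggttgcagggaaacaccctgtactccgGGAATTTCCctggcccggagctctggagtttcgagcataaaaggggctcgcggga
Cxcl2 (chr5:90903758-90903857, plus strand): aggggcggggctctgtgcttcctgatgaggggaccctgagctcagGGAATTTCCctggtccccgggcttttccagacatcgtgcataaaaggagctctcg
Cxcl3 (chr5:90785984-90786083, plus strand): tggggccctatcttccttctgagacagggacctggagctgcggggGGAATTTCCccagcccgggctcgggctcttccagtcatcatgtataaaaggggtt
Il6 (chr5:30013014-30013113, plus strand): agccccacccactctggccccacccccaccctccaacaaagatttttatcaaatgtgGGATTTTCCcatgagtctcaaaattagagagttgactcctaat

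Neutrophil markers were lower alongside their attractants. All 14 measured neutrophil markers were negative. On the lower side 2 stood apart, Lcn2 and G0s2, against 2.56% of all genes. The summed level of the list was 345, 276 and 643 normalized CPM with liraglutide against 455, 1239.5 and 1015 with PBS, so liraglutide replicate 3 was above PBS replicate 1. S100a9, a subunit of the granule protein calprotectin, was at 49.3, 31.6 and 132 against 84.6, 264 and 219 and overlapped in the same way (-1.41, SE 0.691). Lcn2, lipocalin 2 of neutrophil granules and of injured epithelium, was the even exception, at 108, 110.1 and 114 against 145, 270.3 and 205 (-0.90, SE 0.202, adjusted p = 0.403). G0s2, which fat cells also make, was at 7.85, 9.19 and 13.5 against 14.6, 27.8 and 16.6 (-0.95, SE 0.291). The median of the list was -1.11, and it ran from -2.18 (without liraglutide replicate 3) to -0.78 (without PBS replicate 2). Monocyte and macrophage markers had 13 of 14 negative, with a median of -0.49 that ran from -1.07 (without liraglutide replicate 3) to -0.10 (without PBS replicate 2), and was -0.20 and -0.28 without liraglutide replicates 2 and 1. Arg1, arginase of activated macrophages, stood apart at 0.471, 0.0724 and 0.389 against 1.295, 1.49 and 0.799 (-1.95, SE 0.518). These Arg1 levels rest on few counts, as 3 counts make 0.137 to 0.479 CPM across the atrial libraries. The median of the resident macrophage markers was -0.08, and its sign turned with single libraries: it ran from -0.37 (without liraglutide replicate 3) to 0.16 (without liraglutide replicate 2), was 0.12 without PBS replicate 2, and was -0.78 with liraglutide replicate 2 alone.

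Smooth muscle and pericyte markers were all positive, 15 of 15, with 3 apart on the higher side, against 2.83% of all genes. Myh11, the smooth muscle myosin, was at 38.5, 25.3 and 28.95 against 18.9, 19.5 and 17.7 normalized CPM (0.72, SE 0.165, adjusted p = 0.403). Tagln, which binds actin in these cells, was at 40.2, 32.9 and 28.6 against 24.4, 27.4 and 26.7 (0.37, SE 0.144). Lmod1, the leiomodin of smooth muscle, was the other (0.85). The median was 0.44, but with liraglutide replicate 2 as the only treated library it was 0.07. The ventricular profile would give a median of 0.04.

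The receptor that liraglutide acts on was scarcely detected. Glp1r stood at 1.81, 0.651 and 0.692 normalized CPM with liraglutide against 1.45, 0.545 and 1.28 with PBS, with overlapping ranges (-0.02, SE 0.544, adjusted p = 0.999). It is 28.003 times higher in PBS atria than in PBS ventricle, from few counts in each. Of 18 incretin receptors and cAMP components 1 stood apart, on the higher side. Of all genes 2.83% did so on that side and 2.56% on the lower, so a count of 1 is no result about the list. The member was the cAMP phosphodiesterase Pde3a, at 95.4, 98.99 and 115 against 83.2, 74.4 and 81.3 (0.37, SE 0.112). Among 16 early genes that cAMP induces elsewhere, Ppargc1a, the co-activator of mitochondrial genes, stood apart on the higher side (0.75, SE 0.203). Pde4b (-0.31) and the clock gene Per1 (-0.22) stood apart on the lower side, where 2.56% of all genes did. The median was -0.12, and its sign depended on 1 library, as it ran from -0.20 (without liraglutide replicate 1) to 0.05 (without liraglutide replicate 2). The clock output gene Dbp (-0.76) and Bhlhe41 (-0.39) were lower with Per1, and the labels give no hour of collection.

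Metabolic lists differed in direction. Fatty acid oxidation genes had 17 of 20 positive with a median of 0.10, of which ventricular RNA would give 0.06. The median was 0.03 after subtraction of the ventricular profile. Cpt1b, the carnitine transferase that admits fatty acids to mitochondria, was at 3.14, 2.97 and 3.72 against 1.905, 1.93 and 1.92 normalized CPM (0.78, SE 0.2397). Fabp3, the fatty acid binding protein of heart muscle, also stood apart (0.26), and Angptl4, an inhibitor of lipoprotein lipase, stood apart on the lower side (-0.85). The 18 respiratory chain genes had a median of 0.07 (0.14 without liraglutide replicate 3 and 0.04 without liraglutide replicate 2). Cholesterol genes were all negative, with a median of -0.44 and of -0.27 without PBS replicate 2, and Sqle, an early enzyme of the sterol branch, stood apart (-0.89).

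How far ventricular RNA reaches can be read from the genes that the ventricle makes. Of the tested genes 167 were at least 4-fold higher in PBS ventricle than in PBS atria. This choice used the PBS atria, so it can lift the measured values, and they support nothing by themselves. The 167 had a median log2 fold change of 0.49, with 154 positive, and the share computed from Myl2 would give a median of 0.23. Without liraglutide replicate 3 the measured median was 0.29 and the computed one 0.08. With liraglutide replicate 2 as the only treated library the measured median was 0.04. The other 13363 genes had a median of -0.0048. Myl3, the ventricular essential light chain, shows the pattern for 1 gene: 338, 73.8 and 615 normalized CPM with liraglutide against 110.5, 50.4 and 68.8 with PBS (2.16, SE 0.817), with 2.01 computed from the share. With liraglutide replicate 2 alone it was at -0.06.

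**Figure D4:**
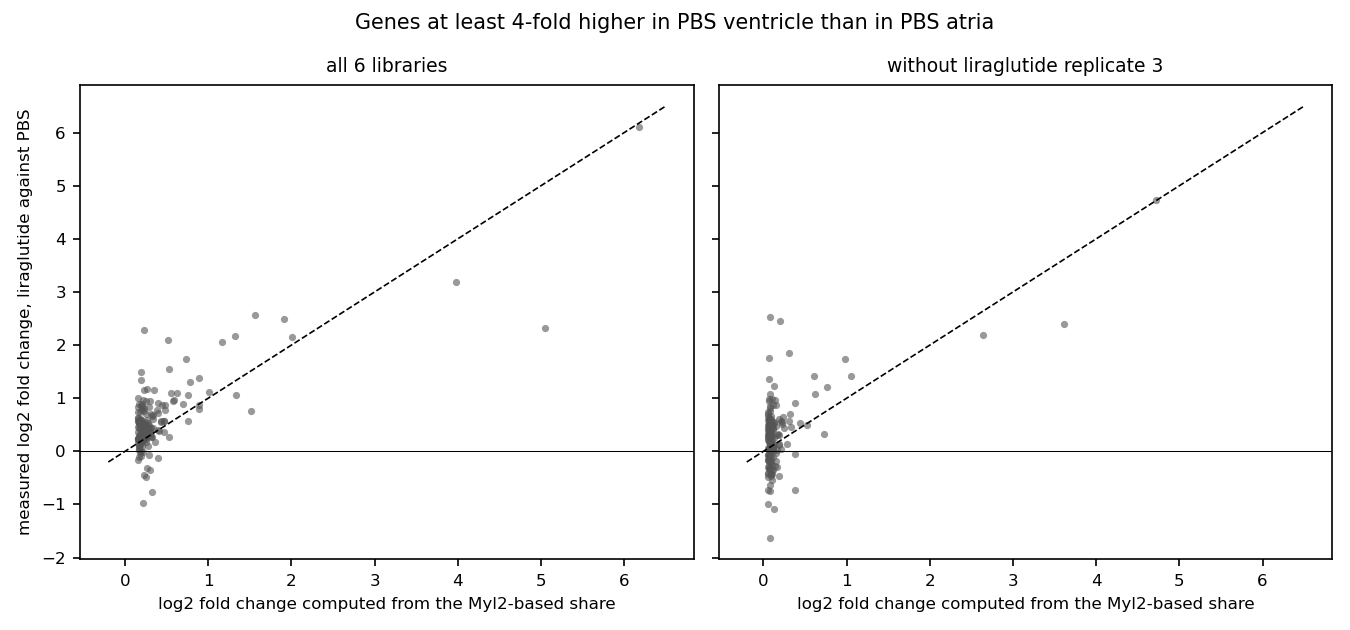
Measured log2 fold change of liraglutide over PBS against the log2 fold change that the Myl2-based ventricular share alone would make, for the 167 tested genes at least 4-fold higher in PBS ventricle than in PBS atria, with the line of equality dashed. With all 6 libraries the median of the measured values is 0.49 and that of the computed ones 0.23; without liraglutide replicate 3 they are 0.29 and 0.08.

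Subtracting the ventricular profile from each atrial library left 2 genes past the threshold, Irs2 and Pwwp3b. With the log2 level of Myl2 as a covariate, which leaves fewer degrees of freedom, no gene passed in edgeR, with 958 genes at an unadjusted p under 0.05 and 929 in the fit without it. Irs2 then had 1.02 (adjusted p = 0.408). After subtraction the list medians were 0.96 for stretch genes, 0.49 for heat shock genes, 0.28 for FOXO targets, -1.32 for cytokines and -1.05 for neutrophil markers. The share alone would give these lists, in the same order, medians of 0.0040, 0.0014, 0.011, -0.048 and -0.051. Subtraction of this profile, that of PBS non-infarcted LV, could therefore not have turned their signs. What RNA of infarcted LV would give these lists was not computed. With liraglutide replicate 2 as the only treated library the measured medians of these lists were, in the same order, 0.98, 0.72, 0.25, -2.56 and -2.58. The part of ventricular RNA in the genes not given here was not tested.

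Leaving out PBS replicate 2, the library with fat RNA, turned the sign of the adipocyte and fatty acid synthesis lists. The median of 11 adipocyte markers was -2.51 with all 6 libraries and 1.72 without PBS replicate 2. Adipoq itself had -2.89 (SE 1.9001) and 2.25. Fatty acid synthesis genes went from -0.68 to 0.07. The 4 tested brown adipocyte markers, all negative with 6 libraries, stayed below 0 in median (-0.36, and -0.07 without PBS replicate 2). Scd1, the stearoyl-CoA desaturase, was at 39.7, 34.4 and 66.5 normalized CPM against 43.2, 2309 and 34.98, and Fasn at 67.9, 62.02 and 70.8 against 68.9, 1101 and 63.4. Scd2, a relative of Scd1, stood apart on the higher side (0.49, and 0.64 without PBS replicate 2). Irs2 had 1.16 without that library, Ccn2 1.42 and Gja5 -0.88, all close to their values with it.

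**Figure D5:**
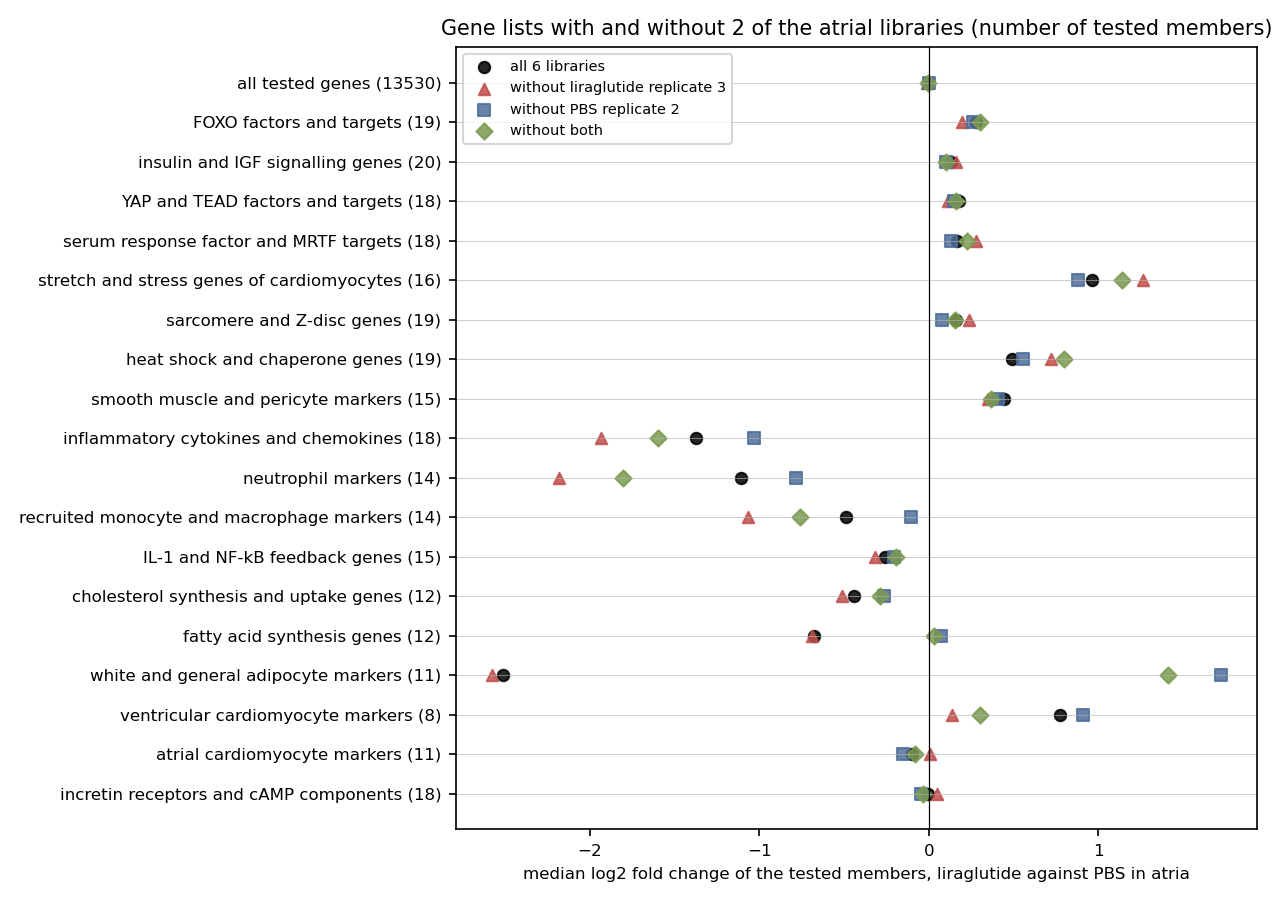
Median log2 fold change of the tested members of 18 gene lists and of all tested genes, with all 6 atrial libraries, without liraglutide replicate 3, without PBS replicate 2 and without both. Stretch, heat shock, cytokine and neutrophil medians lie farther from 0 without liraglutide replicate 3, and the adipocyte median changes sign without PBS replicate 2.

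Among the 6 libraries, leaving out liraglutide replicate 3 changed the count of calls most. Without it, 105 of 13675 genes passed (0.768%), 94 higher and 11 lower. Of the 94, liraglutide replicate 3 was the lowest treated library in 91 and lay above all controls in 47. These calls rest on liraglutide replicates 1 and 2, which differ by a chi-square of 10.2 per degree of freedom, against 59.0 and 44.3 for replicate 3 with each of them. When PBS replicate 2 was also left out, 80 of 13405 genes passed (0.597%), 63 of them shared with the 105. Klhl40, which stabilizes thin-filament proteins, shows the division: 964, 631 and 143 normalized CPM against 192, 96.9 and 203 (1.83, SE 0.736), and 2.02 without both libraries (adjusted p = 0.0103). Plk2, a stress-induced kinase, was at 99.1, 71.1 and 40.1 against 23.5, 18.9 and 26.8 and passed there too (0.0103). Adpgk, an ADP-dependent glucokinase, was at 122, 87.1 and 39.4 against 23.6, 27.5 and 30.5 (0.0103), and Prkag3, a subunit of the energy sensor AMPK, at 19.2, 16.2 and 6.66 against 4.04, 4.36 and 5.11 (0.0103). Tns3 and the lipoxygenase Aloxe3 passed likewise.

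On the lower side in that smaller set were Gja5 (-0.82, adjusted p = 0.026), the endothelial adhesion molecule Sele (-0.75, 0.0415) and Gfpt2 (-0.66, 0.049), the entry enzyme of the hexosamine pathway. Sele is the selectin that captures white cells, and it stood at 63.6, 54.2 and 102 normalized CPM with liraglutide against 96.7, 100.5 and 101 with PBS. Rac2, a GTPase of white cells, and Idh1, an enzyme that makes NADPH, did not pass (adjusted p = 0.0607 and 0.0764). In Sele liraglutide replicate 3, left out of that fit, was above every control, and in Gfpt2, Rac2 and Idh1 above at least 1.

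DESeq2, which fits the same 6 libraries with another treatment of the spread, called 118 of 14171 genes (0.833%), 87 higher and 31 lower. It shared 45 calls with the fit without liraglutide replicate 3. DESeq2, voom with quality weights, and edgeR on all 18 libraries shared 22 calls, 15 higher and 7 lower, none of which overlapped with the controls. Irs2 is not among them, as it missed the threshold in the fit of all 18 libraries (adjusted p = 0.0561). They include Ccn2, Pwwp3b, Fhl1, Hspa8, Lmod2 and Sesn1, along with the kinase Pim1 (0.74, SE 0.148), the exchange factor Rapgef2 (0.68, SE 0.142), the junctional membrane protein Jph1 (0.68, SE 0.142) and the co-repressor Ctbp2 (0.79, SE 0.161). These calls come from the same 6 atrial libraries and are not independent of one another.

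The same drug contrast in the ventricle serves as the nearest comparison. Ventricular levels are normalized within their own region. The labels number the libraries of every region from 1 to 6 without saying that a number marks an animal, and the tests below treat the 18 libraries as separate samples. Irs2 in non-infarcted LV was at 51.3 ± 16.4 normalized CPM with liraglutide and 52.5 ± 23.997 with PBS (SD, n = 3 each; -0.0094, SE 0.445). In infarcted LV it was at 222 ± 13.8 and 193 ± 10.8 (0.20, SE 0.08203). The atrial effect minus the ventricular one was 1.21 (SE 0.364, adjusted p = 0.529) and 0.99 (SE 0.356, adjusted p = 0.635). The difference of effect between regions therefore did not pass for Irs2, whose level varied more among non-infarcted LV libraries than among atrial ones. Ccn2 differed from the non-infarcted LV by 1.497 (SE 0.371, adjusted p = 0.424).

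No gene passed the test of a different effect in atria, of 13920 in the fit of all 18 libraries, for either ventricular region (0%). At an unadjusted p under 0.05 there were 750 genes against non-infarcted LV and 903 against infarcted LV, and DESeq2 called 58 and 30. The smallest adjusted p belonged to Lbh against non-infarcted LV (1.204, SE 0.192, adjusted p = 0.065) and to Pwwp3b and Lbh against infarcted LV (1.61 and 1.09, both 0.119). Lbh is also the gene to which the ventricular share would add 0.39. Prkag3 (1.94) was among the next on the higher side against non-infarcted LV and Prr33 (-0.80) on the lower. The effect on Fjx1 was -0.76 in atria, -0.54 in non-infarcted LV and -0.51 in infarcted LV, and the differences were -0.21 (SE 0.323) and -0.25 (SE 0.303).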

How the data were processed

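Poly(A) RNA of mouse atria and left ventricle was sequenced from stranded libraries, per the labels' protocols. The deposited values are whole-number counts per gene. STAR 2.7.9a, DESeq2 and mm10 are named in the submitters' processing notes, without their roles. From the counts, the 6 atrial libraries were fitted with edgeR 4.0.16 in R 4.3.3 (filterByExpr, TMM factors, robust quasi-likelihood test, Benjamini-Hochberg adjustment, threshold 0.05). Differences between regions were tested as interaction terms over all 18 libraries without a block, since no label ties a number to an animal. Alternatives used DESeq2 1.42.0, limma 3.58.1 (voom with quality weights), other filters and left-out libraries. The scripts were tested on simulated data. The ventricular share is a library's Myl2 CPM over the mean of PBS non-infarcted LV. The mean profile of PBS non-infarcted LV, times the share, was subtracted in 1 alternative. Motifs were searched in RefSeq promoters of GRCm38.p6. Named genes were those past the threshold, the 15 per direction with the smallest p among genes that stood apart, those shared by 3 tools, and the 10 per direction in the fit without liraglutide replicate 3 and PBS replicate 2. Other genes come from 45 lists. The members and lists were chosen with earlier results of these data known. No 2 libraries of a group agreed within sampling noise. A gene that the naming rule gave is not reported here.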

Additional observations from a re-analysis of the deposited data

How the results depend on the processing

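The count of genes past the threshold was 1 with all 6 atrial libraries. It stayed at 1 with DESeq2-style size factors, a CPM filter or the ventricle-enriched genes left out. It was 3 with no filter, 36 with voom and quality weights, 94 in the fit of all 18 libraries and 118 with DESeq2. It was 0 with the Myl2 or the Adipoq level as a covariate and 2 with the ventricular profile subtracted. Leaving out each library in turn gave 0 to 105. It was 80 without liraglutide replicate 3 and PBS replicate 2, and 5 with liraglutide replicate 2 as the only treated library. Also without PBS replicate 2, a choice made after seeing the data, it was 282. A lone treated library is assumed there to vary like the controls.

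With the replicate number as a block, the atrial count was 0. With the label number, 1 to 6 in every region, as the block, the count against non-infarcted LV was 1 (Nab2) and that against infarcted LV stayed at 0; Irs2 then had 1.18 (adjusted p = 0.528) and 0.996 (adjusted p = 0.548). By replicate number, deviations of liraglutide and PBS atria correlated at 0.0960, -0.34 and -0.0726 across genes, so no pairing is seen there. Atrial and LV libraries with the same label number correlated at -0.0349 to 0.14 over 12 pairs. Over 24 pairs of other numbers the range was -0.126 to 0.085. With non-infarcted LV the same-numbered values were 0.126, 0.0843 and 0.14 for PBS and 0.0208, -0.0349 and -0.0307 for liraglutide. Whether a label number marks an animal is therefore not settled. The count of genes with a different effect in atria was 58 with DESeq2 and 1 with no filter against non-infarcted LV, and 30 with DESeq2 against infarcted LV. Leaving out each atrial library in turn gave 0 to 118 and 0 to 117, the highest both times without liraglutide replicate 3. No LV library was left out.

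The ventricular share of liraglutide replicates 1, 2 and 3 was 2.98, 0.569 and 11.4% by the median of 4 ventricular markers. Myl2 is among these 4, so this share is not independent of the first. With infarcted LV as the reference the share by Myl2 was 3.32, 0.1002 and 11.2%. For PBS replicates 1, 2 and 3 the share was 1.07, 0.447 and 0.544% by the 4 markers, and with the infarcted reference 0.107 and 0.0718% for replicates 1 and 2. The cause of these shifts was not tested.

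Log2 fold changes that changed sign all missed the threshold on both sides. Adipoq had 0.17 with its own level as a covariate, and -3.46 to 2.25 when libraries were left out. Nppa had 0.0113 with voom, 0.26 with the Myl2 covariate, 0.14 with liraglutide replicate 2 alone, 0.0690 also without PBS replicate 2, and as low as -0.23. Glp1r had 0.0257 with voom, 0.0364 after subtraction, and -1.07 to 0.35 with libraries left out. Gja1 had -0.30 to 0.12 with libraries left out, and Myl3 -0.29 to 2.65. Myl3 also had -0.0640 with liraglutide replicate 2 alone and -0.31 with the Myl2 covariate. Foxo1 had -0.0074 and -0.0166 under those 2 settings, and Myot had -0.0452 after subtraction.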

Other observations

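Several cell types and programmes that the drug contrast might have touched had small medians in the atria that moved when single libraries were left out. Interferon-stimulated genes had a median log2 fold change of 0.04, with 9 of 14 positive and none apart, and it ran from -0.18 (without liraglutide replicate 3) to 0.20 (without liraglutide replicate 2) when each library was left out. Endothelial markers had 0.05, which ran from 0.0097 (without PBS replicate 2) to 0.11 (without PBS replicate 1), with Vwf, the clotting protein of vessel lining, apart on the lower side (-0.26, SE 0.107). Fibroblast and matrix genes were mostly negative, 14 of 18, with a median of -0.16 that ran from -0.32 (without liraglutide replicate 3) to -0.04 (without PBS replicate 2). Tnc, a matrix protein of healing tissue, stood apart at 8.71, 5.14 and 6.32 normalized CPM with liraglutide against 9.98, 19.4 and 14.5 with PBS (-1.13, SE 0.2798). The genes of the sinoatrial node and conduction system had a median of -0.06, which ran from -0.33 (without liraglutide replicate 2) to 0.12 (without liraglutide replicate 1), with none of 12 apart. Calcium handling genes had 0.11, which ran from 0.03 (without liraglutide replicate 3) to 0.14 (without PBS replicate 3).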
